A study of Mus musculus with 42 samples.

Results

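The genes described are 10 markers of the embryonic neural tube, namely Sox1, Sox2, Sox3, Pax6, Pou3f2, Olig2, Nkx6-1, Zic1, Neurog2 and Fabp7. They were chosen by symbol, and all 10 were found among the 56953 genes counted. They were followed in 42 libraries of poly-A RNA from 21 mouse embryos at E8.5, with a library of the left heart field and a library of the right from each embryo. Wild-type embryos (Ccdc40+/+, n = 5, 4 males and 1 female) all had rightward looping of the heart tube. Homozygous mutants (Ccdc40lnks/lnks, an ENU-induced nonsense allele of a gene needed for motile cilia) had either rightward looping (n = 11, 6 males and 5 females) or inverted looping (n = 5, 3 males and 2 females). The background strain of the line is written C56Bl6J in the study's methods. The laterality classes that the study drew from its own clustering are not in the sample labels and were not used here. By the study's text, the mutants with inverted looping made up its class of situs inversus totalis. The mutants with rightward looping were divided there between situs solitus and heterotaxy, and the labels do not say which embryo fell in which.

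The neural tube forms from the neural plate, which rolls up along the dorsal midline directly above the foregut, the dorsal pericardial wall and the heart. Its progenitors are kept by the SoxB1 factors Sox1, Sox2 and Sox3, and opposing signals from roof plate and floor plate set up domains along its dorsoventral axis, with Zic1 dorsal, Pax6 intermediate, and Nkx6-1 and Olig2 ventral. Neurog2 starts neurogenesis, Pou3f2 is a POU factor of neural progenitors and young neurons, and Fabp7 is a fatty acid binding protein of radial glia. None of these genes defines the heart field itself, although Sox2 is also active in foregut endoderm. By the study's methods the back of the embryo, where the neural tube lies, was taken off during dissection, as were the head, the lower trunk and the heart tube, and the left and right heart fields were kept apart. How much neural tube stayed with each sample was not measured. A bulk library gives the RNA of all cells in such a sample, and a larger piece of neural tube in the sample cannot be told apart from more RNA of these genes per cell.

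All positions are from GENCODE annotation of GRCm39. Sox1 lies at chr8:12445295-12450126 on the plus strand, Sox2 at chr3:34704554-34706610 (plus), Sox3 at chrX:59934972-59937036 (minus), Pax6 at chr2:105499234-105530952 (plus) and Pou3f2 at chr4:22482780-22488366 (minus). Olig2 lies at chr16:91019435-91025567 (plus), Nkx6-1 at chr5:101806005-101813077 (minus), Zic1 at chr9:91240111-91247863 (minus), Neurog2 at chr3:127426448-127429280 (plus) and Fabp7 at chr10:57660956-57664554 (plus). Sox1, Sox2, Sox3 and Pou3f2 each have 1 merged exon, and Pax6 has 17. Reads of several members could be shared with genes on the other strand, since the strand setting of the counting is not given in the sources used here. Pax6 shares 3393 exonic bases with Elp4, Sox2 shares 1233 with the lncRNA Gm64654, Pou3f2 shares 449 and 184 with the lncRNAs Gm57099 and Gm30731, Sox3 shares 361 with Gm14662, Olig2 shares 285 with Gm49614 and Zic1 shares 172 with Zic4. Sox1 holds a miRNA gene (Gm54672) of 86 bases on its own strand, Fabp7 shares 7 bases with Gm66241, and Nkx6-1 and Neurog2 share none.

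The promoters of the members were read from the RefSeq promoter table (GRCm38.p6), which held 10 windows for 9 members. Sox3 had no entry. Each window was placed in GRCm39 by an exact match, found at a single position in every case. The windows of 3 of the 4 genes called in inverted mutants are shown, read 5′ to 3′ on the strand of the gene over the bases before the first annotated exon that the window meets or adjoins, with the CCAAT box in capitals, written ATTGG where it is on the other strand. The window of Nkx6-1 lies within an annotated exon and is not shown. The 243 bases of Pax6 are chr2:105498991-105499233, the 250 bases of Pou3f2 are chr4:22488367-22488616 and the 110 bases of Olig2 are chr16:91022188-91022297. The Olig2 bases are intronic in the longer annotated transcripts, since the gene starts upstream at 91019435.
Pax6: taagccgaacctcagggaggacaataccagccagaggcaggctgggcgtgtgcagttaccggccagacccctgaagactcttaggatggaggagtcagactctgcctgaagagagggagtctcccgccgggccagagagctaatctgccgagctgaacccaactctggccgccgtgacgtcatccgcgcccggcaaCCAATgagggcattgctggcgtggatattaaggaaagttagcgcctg
Pou3f2: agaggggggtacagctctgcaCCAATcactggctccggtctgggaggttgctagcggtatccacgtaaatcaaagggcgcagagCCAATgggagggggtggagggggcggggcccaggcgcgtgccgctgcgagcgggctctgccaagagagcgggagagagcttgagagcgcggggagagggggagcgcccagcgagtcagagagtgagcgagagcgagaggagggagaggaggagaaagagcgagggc
Olig2: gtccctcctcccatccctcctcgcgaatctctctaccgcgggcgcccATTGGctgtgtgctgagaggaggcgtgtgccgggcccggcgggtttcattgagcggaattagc
The CCAAT box was present in 7 of the 10 member windows of 250 bases, in Pax6, Pou3f2, Olig2, Sox1, Sox2, Zic1 and Fabp7, and in 33.8% of all 32851 windows of that length. These shares were not adjusted for base composition. The GC content was 47.6% (the second Pax6 window) to 72% (Sox2) in member windows and 53.2% on average over all windows. The SOX core ACAAAG was present in 2 member windows (Pax6 and Sox2) against 16.5% of all windows, and ACAATG in 1 (Olig2) against 10.7%. TATAAA was present in 1 (Olig2) against 12.4%, and the E-box CAGCTG and the octamer ATGCAAAT were present in none, against 13% and 1.6% of all windows. Both strands were searched, no matches of different motifs overlap in the windows shown, and these matches describe letters in a window and do not show that a factor binds there.

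Libraries held 36073684 to 62970327 counts, with a median of 43458644, and TMM normalization factors ranged from 0.966 to 1.04. Ccdc40 itself was at 15.4 to 26.3 CPM (counts scaled by the library total and its TMM factor) in wild types and 8.88 to 14.6 CPM in mutants, without overlap. Among the 861 pairs of libraries 0 were identical. Second heart field markers, which mark the labelled tissue, were present in all libraries (summed CPM 211 to 541), as were heart muscle markers (222 to 5131), and markers of neural crest, somite, foregut, blood and surface ectoderm were present as well. The nonsense allele is the same in all mutants, and nothing in the labels says which embryos came from separate litters, so that p-values measure the spread between these embryos.

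The 10 genes were detected at low to moderate levels, and the level of most of them varied over more than an order of magnitude between libraries. Per kilobase of exons, the highest medians over 42 libraries were those of Sox2 (2.44 CPM per kb) and Nkx6-1 (2.18), followed by Pou3f2 (1.14), Fabp7 (0.906), Pax6 (0.728), Sox3 (0.506), Olig2 (0.312), Sox1 (0.224), Neurog2 (0.0699) and Zic1 (0.0477). The interquartile ranges of all neighbours in this order overlapped, and the value for Pax6 is lowered by its 16047 bases of merged exons. Sox2 was the steadiest member. It ranged from 2.46 to 12.1 CPM and was never absent, whereas Pax6 ranged from 3.24 to 112 CPM, Nkx6-1 from 0.134 to 35.6 CPM and Pou3f2 from 0 to 42.1 CPM. The ventral factor Olig2 was at 0 in 12 of 42 libraries, Sox1 and Neurog2 in 6 each, Zic1 in 5 and Pou3f2 in 2. A count of 0 allows up to 3 counts, or 0.0471 to 0.0833 CPM depending on the library, and these limits cover counting error only.

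**Figure D1:**
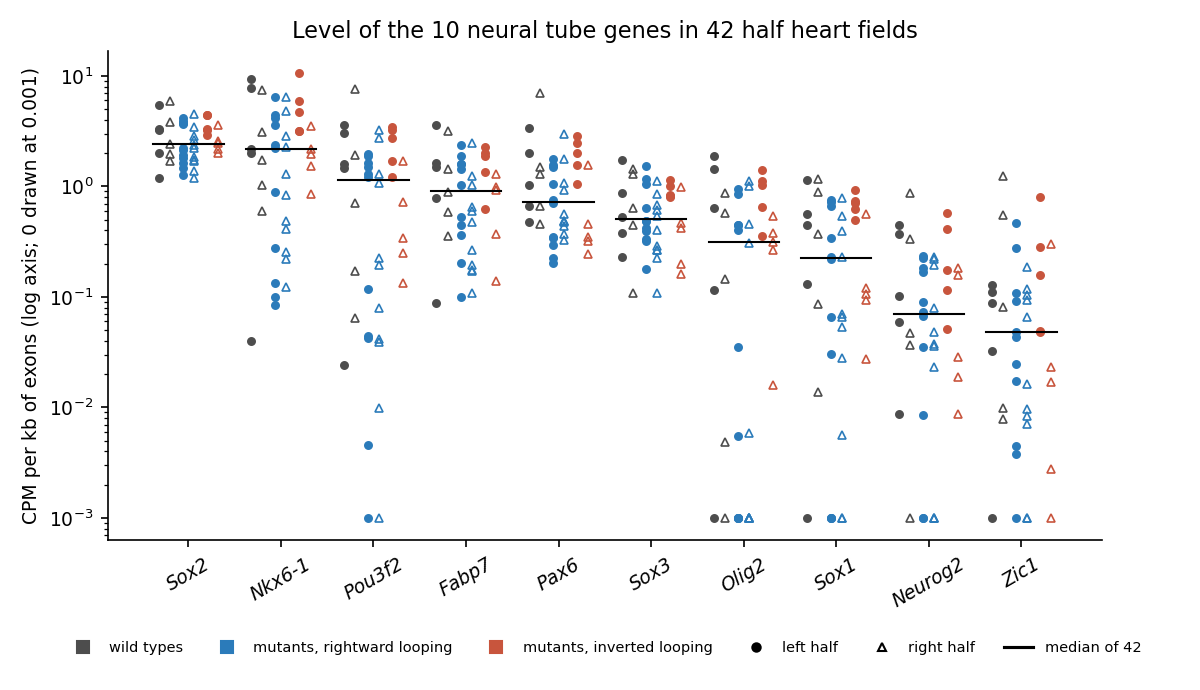
Level of each member in CPM per kilobase of exons (log axis, values of 0 drawn at 0.001) in all 42 libraries, with groups in colour, filled circles for the left, open triangles for the right and a line at the median. The libraries of each gene spread widely around medians that fall from 2.44 (Sox2) to 0.0477 (Zic1), and points at the bottom are libraries with a count of 0.

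Within an embryo the members were mostly high on the same side. In 16 of 21 embryos at least 8 of the 10 members were higher on one side, the left in 12 embryos and the right in 4. The summed CPM of the members differed between the sides of an embryo by 1.07-fold to 10.97-fold, with a median of 2.74-fold, and by over 2-fold in 11 embryos. The side varied among wild types. Their summed level was 118 CPM on the left and 42.9 on the right in embryo 7_1, 115 and 65.4 in 17_7, and 42.4 and 15.2 in 22_4, but 41.2 and 217 in 10_1 and 11.2 and 21.1 in 8_1. In embryos 7_1 and 22_4 all 10 members were higher on the left, and in 10_1 and 8_1 all 10 were higher on the right.

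In mutants with rightward looping the sum was higher on the right in 6 embryos and on the left in 5. Embryos 1_6, 15_5 and 19_4 had all 10 members higher on the left, with sums of 60.1 against 9.94 CPM, 76.3 against 17.4 and 71.5 against 15.0. Embryo 19_6 had all 10 higher on the right, with 9.05 CPM on the left and 99.3 on the right, which was the largest fold difference of the series. The other 7 embryos lay closer to balance, from 51.3 against 47.8 CPM in 2_2 to 10.4 against 20.6 in 18_1, and 4 of them (3_7, 18_1, 22_1 and 23_3) had little of these RNAs on either side, at 9.04 to 20.6 CPM.

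In all 5 mutants with inverted looping the sum was higher on the left. It was 61.6 CPM on the left and 21.3 on the right in embryo 2_7, 109 and 27.1 in 4_6, 95.2 and 63.1 in 10_3, 65.1 and 23.7 in 18_2, and 95.5 and 12.6 in 32_2. The lowest left value of the group (61.6) was below the highest right value (63.1), so that the sides overlapped between embryos, through the right of embryo 10_3 alone.

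**Figure D2:**
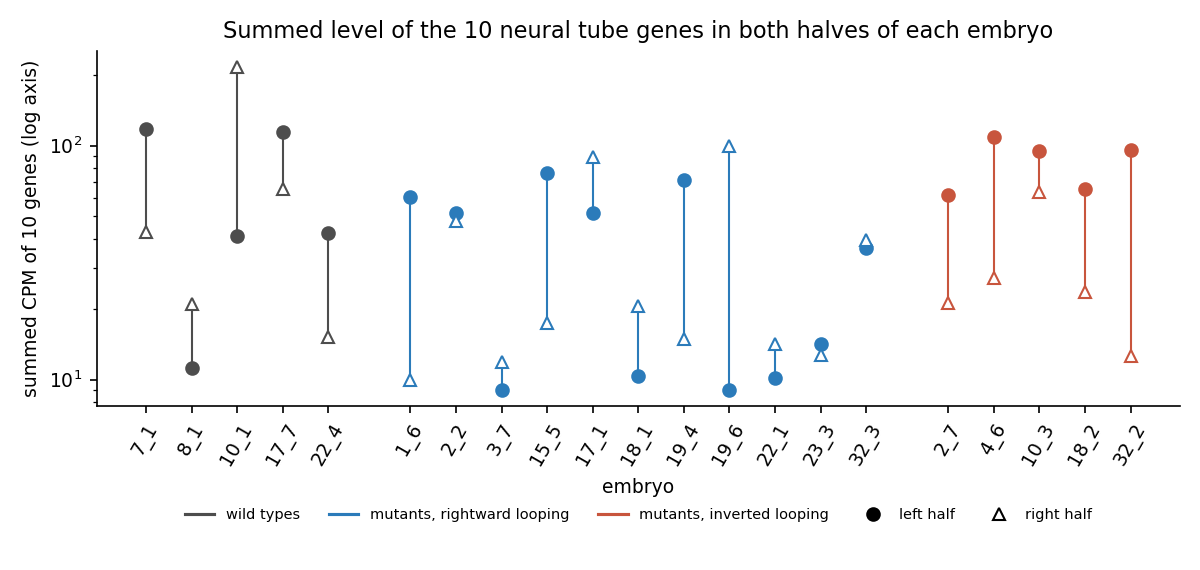
Summed CPM of the 10 members (log axis) on the left (filled circles) and the right (open triangles) of each of 21 embryos, joined by a line per embryo and coloured by group. The higher side varies among wild types and mutants with rightward looping, and the left is higher in all 5 mutants with inverted looping.

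The members also varied together across libraries. The Spearman correlation of each member with the mean of the other members over the 42 libraries, which share embryos, was highest for Pou3f2 (0.96), Sox1 (0.95) and Nkx6-1 (0.94) and lowest for Zic1 (0.73). The log2 ratio of right over left spread over the 21 embryos with an SD between 0.63 (Sox2) and 3.46 (Olig2).

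**Figure D3:**
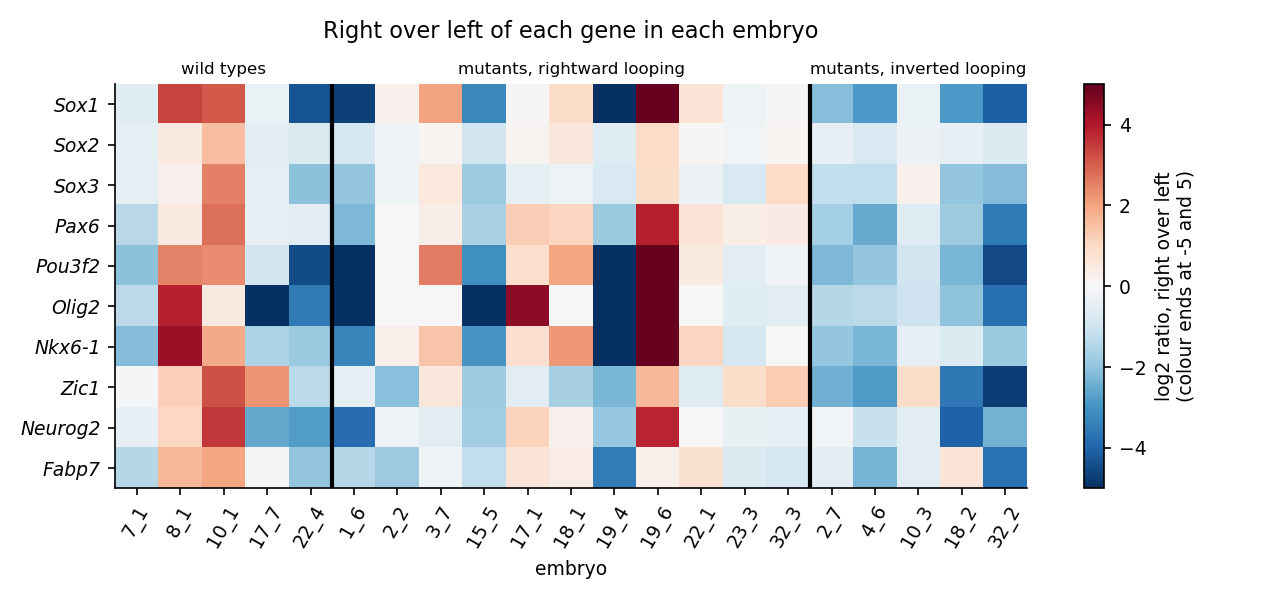
Log2 ratio of right over left (prior count of 2) of each member in each embryo, with red for higher on the right, blue for higher on the left and colours ending at 5 in either direction. Columns are mostly of 1 colour, as in 10_1, 19_6 and 32_2, and the columns of inverted mutants are mainly blue.

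In wild types no member differed between the sides by more than the spread between embryos. Pax6, the eye and intermediate neural tube factor, was at 53.8, 7.57, 16.5, 31.9 and 10.8 CPM on the left of embryos 7_1, 8_1, 10_1, 17_7 and 22_4, and at 20.6, 10.7, 112, 24.2 and 7.36 CPM on the right. Pou3f2 was at 16.8, 0.134, 8.16, 20.3 and 8.97 CPM on the left and at 3.99, 0.964, 42.1, 10.8 and 0.358 on the right. In both genes the right of 10_1 was the highest library of all 42, and the sides overlapped. Nkx6-1, a ventral progenitor factor, was at 26.2, 0.134, 6.75, 31.1 and 7.28 CPM on the left and at 5.77, 3.42, 24.97, 10.4 and 1.99 on the right. Olig2, the factor of the motor neuron progenitor domain, was at 5.92, 0, 2.64, 7.81 and 0.475 CPM on the left and at 2.37, 0.605, 3.62, 0.0203 and 0 on the right. These genes followed the order of the summed level in each embryo, higher on the left in 7_1, 17_7 and 22_4 and higher on the right in 8_1 and 10_1. The right of 10_1 also stood apart in other tissues. Its summed CPM was 865 for heart muscle markers (2543 to 3357 on the right of the other 4 wild types), 211 for second heart field (364 to 493), 258 for foregut endoderm (466 to 610) and 585 for surface ectoderm (1042 to 1364). It was also the lowest right sample of wild types for visceral endoderm (63.2), endothelium (407) and notochord and floor plate (28.6). By contrast, it was the highest for paraxial mesoderm and somite markers (288) and neural crest markers (235).

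By edgeR's quasi-likelihood test with the embryo as a block and Benjamini-Hochberg adjustment over all genes, 0 of the 10 members were called in wild types, as were 0 of 23182 genes (0%). At an unadjusted p under 0.05 there were 0 members and 639 genes, and DESeq2 called 0 members and 20 genes. Fitted log2 fold changes ran from -1.24 (SE 1.38) for Olig2 to 1.56 (SE 0.72) for Zic1, with a median of -0.06 and 6 of 10 members below 0. This direction rests on single embryos, since 9 of 10 members lay below 0 without 10_1 and 8 without 8_1, but 3 without 7_1 or without 17_7 and 1 without 22_4, with 0 members called in each case. With 5 embryos that differ in side, the mean log2 ratio of Pou3f2 was -0.52 ± 2.98 (SD, n = 5) and that of Nkx6-1 was 0.11 ± 2.84, so that the SD exceeded the mean many times. The mean of Nkx6-1 was -0.93 without 8_1, and that of Pou3f2 was 0.47 without 22_4.

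In mutants with rightward looping the sides overlapped for every member. Pax6 was at 3.24 CPM at the lowest, 11.3 at the median and 28.2 at the highest on the left, and at 5.27, 7.75 and 48.0 on the right. Pou3f2 was at 0, 6.81 and 10.9 CPM on the left and at 0, 1.09 and 18.2 on the right. Nkx6-1 was at 0.282, 7.47 and 21.8 CPM on the left and at 0.416, 2.79 and 21.5 on the right. The highest right value came from 19_6 for Pax6 and Pou3f2 and from 17_1 for Nkx6-1, and 19_6 also had the lowest left value of Pax6. Olig2 was at 0, 0.147 and 3.91 CPM on the left and at 0, 0 and 4.63 on the right, and in 3 embryos (3_7, 18_1 and 22_1) it was at 0 on both sides. Olig2 did not pass the filter on low counts in this group. Of the 9 members tested, 0 were called by edgeR's quasi-likelihood test, against 6 of 22795 genes (0.0263%), and 1 member was under an unadjusted p of 0.05, Fabp7 with a log2 fold change of -0.75 (SE 0.35), beside 818 of the 22795 genes. DESeq2 called 0 members and 32 genes.

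In mutants with inverted looping 4 of the 10 members were called lower on the right. A call was an adjusted p under 0.05 by edgeR's quasi-likelihood test, and all 10 members had fitted values below 0. Pax6 was at 16.8, 32.3, 39.6, 24.99 and 46.1 CPM on the left of embryos 2_7, 4_6, 10_3, 18_2 and 32_2, and at 5.15, 5.58, 25.03, 7.28 and 3.94 CPM on the right. Pou3f2 was at 6.73, 15.4, 19.2, 9.50 and 18.2 CPM on the left and at 1.38, 4.03, 9.55, 1.92 and 0.752 on the right. For both, every embryo was higher on the left, and the sides overlapped only through the right of 10_3. Nkx6-1 was at 20.0, 35.6, 15.9, 10.7 and 10.7 CPM on the left and at 5.18, 7.36, 11.7, 6.60 and 2.88 on the right. Olig2 was at 4.30, 5.79, 2.70, 4.62 and 1.46 CPM on the left and at 1.55, 2.25, 1.30, 1.10 and 0.0664 on the right. Again every embryo was higher on the left, with overlap between embryos from the right of 10_3 for Nkx6-1 and from the left of 32_2 for Olig2.

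The fitted log2 fold changes of right over left and their adjusted p by edgeR's quasi-likelihood test were -2.02 (SE 0.36, adjusted p = 0.0309) for Pax6, -2.32 (SE 0.42, 0.0348) for Pou3f2, -1.45 (SE 0.28, 0.0424) for Nkx6-1 and -1.77 (SE 0.35, 0.0441) for Olig2. Among all genes 468 of 22960 (2.04%) were called, 395 higher and 73 lower on the right, and the 73 are 0.318% of the genes tested. An unadjusted p under 0.05 in the same test was reached by 9 of the 10 members and 3468 of the 22960 genes. The median log2 fold change was -1.76 for the 10 members and -0.01 for all genes. The left was higher in every embryo for 7 of 10 members, against 6.87% of genes. These 4 calls depended on the embryos and the fit. Without embryo 18_2, 2_7 or 4_6 no member was called, without 32_2 the calls were 2 and without 10_3 they were 7, and without the embryo as a block, in a joint fit of the 42 libraries, or in males alone they were 0, while DESeq2 called 9. Under all 12 alternatives run, other normalizations and no filter included, the 10 members had log2 fold changes below 0, and over them the adjusted p ranged from 0.000187 to 0.189 for Pax6, from 0.0003 to 0.321 for Pou3f2, from 0.000706 to 0.483 for Nkx6-1 and from 3.9e-08 to 0.554 for Olig2.

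**Figure D4:**
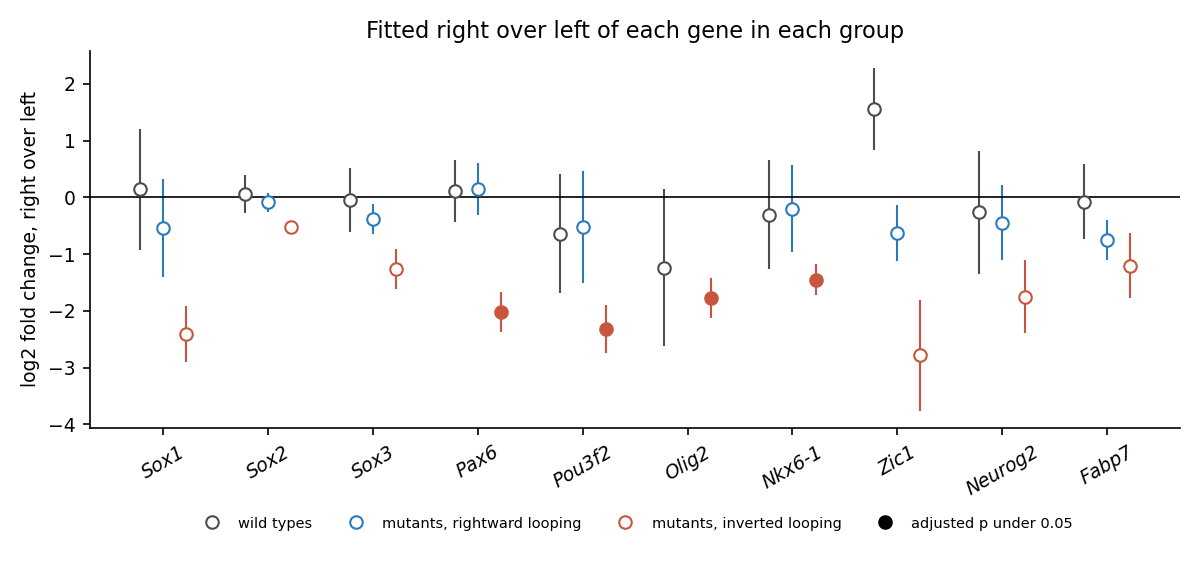
Fitted log2 fold change of right over left of each member (edgeR, embryo as a block) with its standard error in wild types, mutants with rightward looping and mutants with inverted looping, with filled points for an adjusted p under 0.05. In inverted mutants all 10 points lie below 0, from -0.53 (Sox2) to -2.79 (Zic1), and 4 are filled, whereas Olig2 has no point in mutants with rightward looping because it did not pass the filter.

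The other 6 members were not called in inverted mutants. Among the SoxB1 factors, Sox1 had a log2 fold change of -2.41 (SE 0.49, adjusted p = 0.0523 by edgeR's quasi-likelihood test), Sox2 of -0.53 (SE 0.12, 0.0675) and Sox3 of -1.26 (SE 0.35, 0.13). Sox1 ranged from 2.41 to 4.49 CPM on the left and from 0.133 to 2.71 on the right, and Sox2 from 6.05 to 9.13 and from 4.14 to 7.33. Both were higher on the left in 5 of 5 embryos, and Sox3 in 4 of 5. The dorsal factor Zic1 had the log2 fold change farthest from 0 and the widest error (-2.79, SE 0.98, adjusted p = 0.22), the proneural factor Neurog2 had -1.75 (SE 0.65, 0.247) and Fabp7 had -1.20 (SE 0.57, 0.377). Neurog2 was higher on the left in 5 of 5 embryos and Zic1 and Fabp7 in 4 of 5.

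In a few embryos single members departed from the rest. In wild-type embryo 17_7, Olig2 was at 446 counts on the left (7.81 CPM) and at 1 count on the right, while Zic1 was at 36 counts on the left (0.630 CPM) and 156 on the right (3.16 CPM). The ventral gene Nkx6-1 was higher on the left there (31.1 against 10.4 CPM), and Sox1, Sox2, Sox3, Pax6 and Fabp7 differed by a log2 ratio of at most 0.51 in size. Neurog2 was also higher on the left (54 against 6 counts, log2 ratio -2.57), as was Pou3f2 (log2 ratio -0.90). In the rightward mutant 17_1, Olig2 was at 0.147 CPM on the left and 4.16 on the right, and Zic1 at 1.59 and 1.06. In the inverted mutant 10_3, Zic1 (0.902 on the left, 1.72 on the right) and Sox3 (1.74 and 2.04) were higher on the right while the other 8 members were higher on the left. These are single embryos, described without a test.

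The genes most like the members were sought among all others. Of 15238 other genes with a mean of at least 1 CPM, the 10 with the highest Spearman correlation with the mean of the members over the 42 libraries were Gm54109 (0.96), Lfng (0.95), Fam181a (0.95), Stmn3 (0.95), Foxb1 (0.95), Nrcam (0.95), Sox1ot (0.95), Rfx4 (0.94), Hes5 (0.94) and Celsr2 (0.93). Lfng modifies Notch receptors, Hes5 is a Notch target, Nrcam is a cell adhesion molecule, and Sox1ot is a long non-coding RNA whose locus overlaps Sox1. These libraries share embryos, and the correlations are descriptions.

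A wider list of 66 other neural tube genes was read in the same tests. In inverted mutants 8 of the 57 that passed the filter were called, 7 lower and 1 higher on the right, against 2.04% of all genes. The median log2 fold change of the list was -0.84. The 5 farthest from 0 were Hes5 (-2.61, SE 0.48, adjusted p = 0.0342 by edgeR's quasi-likelihood test), the ventral factor Nkx6-2 (-2.48, SE 0.36, 0.0141), the growth factor Fgf15 (-1.67, SE 0.31, 0.036), the POU factor Pou3f1 (-1.25, SE 0.25, 0.0493) and the Notch ligand Dll1 (-1.05, SE 0.17, 0.0211). The gene that was higher on the right, named after its value was seen, was Msx2 (0.54, SE 0.09, adjusted p = 0.0269), a dorsal factor that is also active in heart and limb mesenchyme. By role, 13 of 13 progenitor genes, 14 of 14 neurogenesis genes, 8 of 8 hindbrain genes, 4 of 4 intermediate, 6 of 7 ventral and 9 of 11 dorsal genes had a log2 fold change below 0. In wild types and in mutants with rightward looping 0 of 58 and 0 of 53 genes of the list were called, with 3 and 1 at an unadjusted p under 0.05, and DESeq2 also called 0 in both. Without embryo 32_2 or 4_6 the calls of the list in inverted mutants were 2, without 18_2 or 2_7 they were 3, without 10_3 they were 12, and without the embryo as a block, in a joint fit of the 42 libraries or in males alone they were 0, whereas DESeq2 called 24 and the test without a filter on low counts called 17.

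Other tissues of the dissected samples also differed between the sides of inverted mutants. Of 8 heart muscle markers 7 were called higher on the right, with a median log2 fold change of 1.03, and their summed level was higher on the right in 5 of 5 embryos (1202 to 2379 CPM on the left, 2322 to 4720 on the right). Second heart field markers, which mark heart progenitors of the dorsal pericardial wall, were higher on the right in 5 of 5 embryos by their sum (265 to 367 against 379 to 510 CPM), with 2 of 8 called higher. Endothelial and surface ectoderm markers were also higher on the right in 5 of 5 embryos by their sums, with 0 of 8 called in each. By contrast, paraxial mesoderm and somite markers had sums of 129 to 223 CPM on the left and 88.0 to 151 on the right, higher on the left in 5 of 5 embryos, with 1 of 8 called lower on the right. Neural crest markers were higher on the left in 5 of 5 embryos by their sum, by 0.02 to 0.25 on the log2 scale, with 0 of 8 called, and Foxd3, a marker of early crest, was at 0 in 5 libraries. Each sum is weighted toward its genes of highest CPM. Examples are Ets1 (median 99.0 CPM over 42 libraries) in neural crest, and Krt8 (494) and Krt18 (553) in surface ectoderm.

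Foregut endoderm markers, where Sox2 is also active, had sums higher on the right in 4 of 5 inverted mutants, with 1 of 8 called higher, while Sox2 itself was higher on the left in 5 of 5. Notochord, visceral endoderm and blood markers had sums that were mixed in direction and no called marker, although by fitted values 8 of 8 visceral endoderm markers lay above 0 and 8 of 8 blood markers below. In wild types and in mutants with rightward looping the sum of each of these 10 tissue lists was higher on the right in some embryos and on the left in others. The part of tissue composition in the difference of the neural tube genes was not tested.

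**Figure D5:**
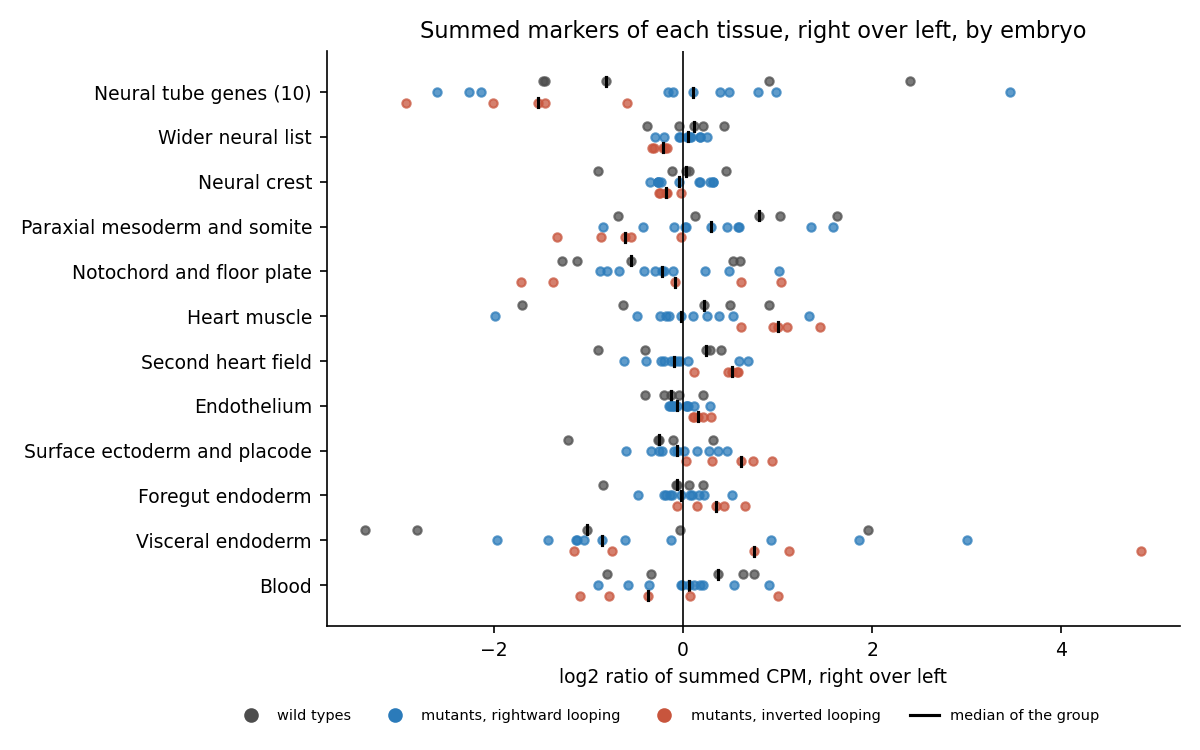
Log2 ratio of right over left of the summed CPM of the 10 members, of the wider neural list and of 10 lists of 8 marker genes of other tissues, with a point per embryo coloured by group and a line at the group median. In inverted mutants the points of the neural, neural crest and paraxial mesoderm lists lie below 0 and those of the heart muscle, second heart field, endothelium and surface ectoderm lists lie above 0. Sums are weighted toward genes of high CPM. In the wider list Sox11 had a median of 632 CPM and a Spearman correlation of -0.09 with the mean of the members.

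The asymmetry of inverted mutants was then compared with that of the other groups, by the interaction between side and group, fitted on the 42 libraries together with a block for each embryo. Against wild types 0 of 10 members were called by edgeR's quasi-likelihood test, with 135 of 26335 genes called (0.513%), although all 10 differences were below 0. The differences in log2 ratio farthest from 0 were those of Zic1 (-4.43, SE 1.27, adjusted p = 0.113 by edgeR's quasi-likelihood test), Sox1 (-2.56, SE 1.53, 0.49) and Pax6 (-2.15, SE 0.90, 0.292). At an unadjusted p under 0.05 there were 2 members, Zic1 and Pax6, among 3569 genes. Zic1 passed by edgeR without embryo 10_3 (-6.18, adjusted p = 0.0305) or without wild-type embryo 22_4 (-4.87, 0.042), and by DESeq2 (-5.15, 0.00597), which called no other member.

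Against mutants with rightward looping 0 of 10 members and 82 of 26335 genes (0.311%) were called, and all 10 differences were below 0, from -0.45 (Sox2) to -2.23 (Zic1). At an unadjusted p under 0.05 there was 1 member, Pax6 (-2.18, SE 0.77), among 2768 genes, and DESeq2 called 0 members. Between mutants with rightward looping and wild types 0 of 10 members and 0 of 26335 genes (0%) were called, with 1 member (Zic1, -2.21, SE 1.05) and 800 genes at an unadjusted p under 0.05 and 0 of either by DESeq2. An asymmetry called in inverted mutants alone was therefore not shown to differ from that of the other groups. These comparisons share the embryos of each group.

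Levels on each side were compared between groups with sex as a covariate. On the left, the level in inverted mutants was above that of wild types for all 10 members by the fitted value, by 0.46 (Olig2) to 2.42 (Zic1, SE 1.19) on the log2 scale, and 0 were called by edgeR's quasi-likelihood test, against 7 of 24838 genes (0.0282%). Against mutants with rightward looping the left of inverted mutants was above by 0.54 (Sox2, SE 0.27) to 1.74 (Zic1, SE 0.90), with 0 members and 3 genes called (0.0121%) and 1 member, Pax6 (1.32, SE 0.49, adjusted p = 0.519), at an unadjusted p under 0.05, beside 1960 of the 24838 genes. Between mutants with rightward looping and wild types the left differed by -1.14 (Olig2, SE 1.10) to 0.68 (Zic1, SE 0.97), with 0 members and 6 genes called (0.0242%).

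On the right, inverted mutants differed from wild types by -2.14 (Zic1, SE 1.23) to 0.06 (Olig2, SE 1.47), with 0 members and 0 of 24859 genes called (0%) and 1 member, Pax6 (-1.83, SE 0.74, adjusted p = 0.803 by edgeR's quasi-likelihood test), and 1474 genes at an unadjusted p under 0.05. Mutants with rightward looping lay below wild types by fitted values of 0.06 to 2.03 on the log2 scale for all 10 members, with 0 members and 3 genes called (0.0121%). Without wild-type embryo 10_1, 6 of the 10 members lay below 0 in each of these comparisons with wild types, and 0 members were called. Inverted mutants differed from mutants with rightward looping by -0.78 (Pax6, SE 0.66) to 0.19 (Fabp7, SE 0.58), with 0 members and 2 genes called (0.00805%). At an unadjusted p under 0.05 there was no member in the other 4 comparisons of levels, and DESeq2 called 0 members in all 6. The right of wild-type embryo 10_1, at 217 CPM for the sum, lies far above the other 4 wild types, at 15.2 to 65.4 CPM.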

How the data were processed

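RNA was sequenced from the left and right heart field of 21 embryos, with the embryo, side, genotype and looping taken from the sample labels. Per the study's methods, libraries were made from poly-A RNA with a low-input kit, duplicates were removed, and reads were aligned to GRCm39 with STAR and counted with featureCounts (Subread 2.0.6). The authors deposited raw counts per gene, without normalization or a filter. For the counting step, strand setting and annotation release are not given in the sources used here. No column was left without a sample.

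Of 56953 identifiers, 56310 were matched to a symbol in GENCODE (GRCm39). From the deposited counts, CPM were scaled by TMM effective library sizes, and log2 ratios were taken with a prior count of 2. Genes were kept by filterByExpr (a minimum count of 5, a minimum total of 10, large.n of 50 and min.prop of 0.2, after the study's methods). The quasi-likelihood test of edgeR 4.0.16 in R 4.3.3 was run on all genes kept, with Benjamini-Hochberg adjustment and a threshold of 0.05. The embryo was a block in the tests between sides, since the labels pair the left and right of an embryo. The correlation of their residuals over the 2000 most variable genes had a median of 0.31 and was over 0.1 in 18 of 21 embryos. Differences of asymmetry were interactions in a joint fit of the 42 libraries, and levels were compared per side with sex as a covariate. DESeq2 1.42.0 was an alternative, as were other normalizations, no filter, no block, no sex term, males alone, 1 fit of all libraries, other prior counts and each embryo left out in turn. The tests were also run on simulated counts, the outcome of which is not given here. Library totals of 36073684 to 62970327 counts set the precision of each value.

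The members, the wider neural list, the tissue lists and the rule for named genes (all members, up to 5 called genes of the wider list per comparison and the 10 genes most like the members) were chosen with earlier results of these data known.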

Additional observations from a re-analysis of the deposited data

Results flagged for a closer look

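Of 60 sets of 5 embryos examined (each member's left CPM, right CPM and log2 ratio in wild types and in inverted mutants), 5 held an embryo that stood apart from the rest by Dixon's test. Chance gives about 1 in 20 for normally distributed values, and whether these CPM are so distributed was not checked. The sets also share libraries, and the members vary together. All 5 flagged sets were levels on the right, and they came from 2 embryos. In wild types embryo 10_1 stood apart with Pax6 at 112 CPM (next highest 24.2) and Pou3f2 at 42.1 CPM (next highest 10.8). The same library was the lowest right sample of wild types in heart muscle markers (865 CPM), second heart field (211), foregut endoderm (258) and surface ectoderm (585). It was also the lowest for visceral endoderm (63.2), endothelium (407) and notochord and floor plate (28.6), and the highest for paraxial mesoderm (288) and neural crest (235). In mutants with inverted looping embryo 10_3 stood apart with Pax6 at 25.03 CPM (next highest 7.28), Sox1 at 2.71 CPM (next highest 0.583) and Zic1 at 1.72 CPM (next highest 0.133). The names of both embryos begin with the same number, the meaning of which the labels do not give. The cause was not tested.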

How the results depend on the processing

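In the test of right against left in inverted mutants, the 4 members called by edgeR became 9 with DESeq2, and 0 without the replicate block (the pairing of both sides of an embryo), in 1 joint fit of the 42 libraries and in males alone. With 1 embryo left out the count ranged from 0 to 7. RLE normalization gave 5, no filter on low counts 6 and library size alone 4. For the difference of asymmetry between inverted mutants and wild types, the count of 0 became 1 with DESeq2 and ranged from 0 to 1 with an embryo left out, the member being Zic1 each time. The cause of these changes was not tested. Among all genes, the 468 calls in inverted mutants became 1755 with DESeq2, 305 without the block, 942 without the filter, 141 in the joint fit, 53 in males alone and 138 to 446 with an embryo left out. For the difference of asymmetry of inverted mutants, 135 genes against wild types became 911 with DESeq2, 7 without the block, 207 without the filter and 17 to 641 with an embryo left out, and 82 genes against mutants with rightward looping became 456, 17, 131 and 18 to 192. DESeq2 raised the counts of genes called from 0 to 20 in wild types and from 6 to 32 in mutants with rightward looping between sides, and from at most 7 to between 6 and 104 in the comparisons of levels, where the other alternatives gave 0 to 12 genes. Counts of members in the other 10 comparisons stayed at 0 under every alternative, including those without the block. No member's mean log2 ratio in a group moved by as much as 1 SD under another prior count or normalization, although that of Fabp7 in wild types went from 0.04 to -0.01 with a prior count of 5. With an embryo left out the mean changed sign for 8 of 10 members in wild types (Pax6 from 0.19 to -0.46 without 10_1), for 5 in mutants with rightward looping and for 0 in inverted mutants. No call was reversed. Zic1, Neurog2, Olig2 and Sox1 had 3 or fewer counts in 13, 12, 16 and 8 of 42 libraries, and their values in those libraries are imprecise.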
